A study of Homo sapiens with 8 samples.

Results

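Histone genes were followed in 2 human liver cancer cell lines in which SMARCB1 had been stably knocked down (SMARCB1 is part of the core of SWI/SNF, an ATP-driven remodeller of nucleosomes). The set held every gene whose array annotation carries a histone name (linker H1, core H2A, H2B, H3 and H4, and the macroH2A variants), without the centromeric CENPA and without probes that name several genes. This gave 88 of the 20044 named genes. Of the 88 genes, 37 gave a signal above the background level and were tested, and 51 did not and carry no comparison.

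The study transduced SK-Hep1 and Huh7 cells with short hairpin RNAs, selected them with puromycin at 1.25 µg/mL, and measured total RNA on Illumina expression arrays. There were 4 groups of 2 arrays: SK-Hep1 with SMARCB1 knocked down (arrays 11 and 12), SK-Hep1 carrying a control hairpin (controls 1 and 2), Huh7 with SMARCB1 knocked down (arrays 3 and 4), and Huh7 carrying a GFP control (controls 1 and 2). SK-Hep1 and Huh7 are both established liver cancer lines. The labels do not say whether the arrays of a group came from separate cultures or separately made knockdown lines, so the p-values measure only the spread between arrays, which may be technical. Nor do they say whether 11 and 12 in SK-Hep1 stand for different hairpins, which their spread would then include. Both Huh7 knockdown arrays also carry the number 11 in their titles (11-3 and 11-4), whereas 12 occurs only in SK-Hep1.

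Histones package DNA into nucleosomes. Replication-dependent histone genes lie in clusters and are transcribed mainly in S phase, and most of their mRNAs end in a stem-loop and not in a poly(A) tail. Most replacement and variant histones are made throughout the cell cycle from polyadenylated mRNAs. Whether this holds for each gene of the class here, H2AX included, was not tested. Many are put into chromatin by dedicated chaperones and mark particular regions. Examples are promoters (H2A.Z), active genes (H3.3), DNA breaks (phosphorylated H2AX) and repressed chromatin (macroH2A).

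Promoter sequences are shown first for 4 genes on which the results turn. MACROH2A2 and H2AX are variants whose differences were not alike in the 2 lines. H2BC5 is the replication-dependent gene that rose in both lines by its brightest probe, and H2BC9 the replication-dependent gene that fell in Huh7. Each sequence runs 5′ to 3′ on the gene's strand, with 250 bases before and 50 bases after the annotated start (RefSeq, build GRCh38.p14). Capitals mark matches, on either strand, to CCAAT, to the octamer ATTTGCAT and to TATAAA; no matches overlapped. The windows are chr10:70052596-70052895 on the plus strand for MACROH2A2, chr6:26157871-26158170 on the plus strand for H2BC5, chr6:26251364-26251663 on the plus strand for H2BC9 and chr11:119095416-119095715 on the minus strand for H2AX.
MACROH2A2: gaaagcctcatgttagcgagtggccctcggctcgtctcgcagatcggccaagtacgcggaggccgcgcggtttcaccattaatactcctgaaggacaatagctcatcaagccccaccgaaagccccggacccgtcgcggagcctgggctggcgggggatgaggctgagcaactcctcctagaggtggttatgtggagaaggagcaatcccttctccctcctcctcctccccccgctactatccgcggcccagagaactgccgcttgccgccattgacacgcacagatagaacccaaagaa
H2BC5: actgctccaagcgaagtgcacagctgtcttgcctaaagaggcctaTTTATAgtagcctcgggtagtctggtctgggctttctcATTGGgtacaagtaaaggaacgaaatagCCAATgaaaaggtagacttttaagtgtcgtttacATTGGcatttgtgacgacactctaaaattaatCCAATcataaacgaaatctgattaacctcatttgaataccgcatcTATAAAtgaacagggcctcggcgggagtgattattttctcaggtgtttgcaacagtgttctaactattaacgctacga
H2BC9: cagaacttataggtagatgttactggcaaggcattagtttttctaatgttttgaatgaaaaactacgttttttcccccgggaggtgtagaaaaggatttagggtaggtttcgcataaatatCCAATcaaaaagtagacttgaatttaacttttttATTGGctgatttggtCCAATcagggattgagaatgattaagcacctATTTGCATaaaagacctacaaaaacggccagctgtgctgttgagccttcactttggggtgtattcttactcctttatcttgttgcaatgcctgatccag
H2AX: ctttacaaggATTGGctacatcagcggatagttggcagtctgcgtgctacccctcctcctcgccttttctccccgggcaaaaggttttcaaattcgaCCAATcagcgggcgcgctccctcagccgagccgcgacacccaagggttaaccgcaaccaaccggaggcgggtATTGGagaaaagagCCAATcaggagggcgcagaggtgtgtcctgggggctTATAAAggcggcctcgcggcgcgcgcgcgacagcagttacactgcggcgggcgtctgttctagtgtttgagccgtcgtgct

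The MACROH2A2 window, with a GC content of 60.7%, held none of the 3 motifs. The H2AX window, at 60.3% GC, held 4 CCAAT matches and a TATAAA match 31 bases before the start. H2BC5, at 41.3% GC, held 4 CCAAT and 2 TATAAA matches but no octamer, whereas H2BC9, at 38% GC, held 3 CCAAT matches and an octamer 49 bases before the start. These letters are a description of the windows and say nothing of which factors bind there.

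A promoter was listed for 81 of the 88 histone genes, and the motifs followed the gene families. CCAAT occurred in 84% of the 81 histone promoters and in 34.6% of all 35116 promoters of the table, TATAAA in 59.3% of the histone promoters and in 11.5% of all, and the octamer in 33.3% of the histone promoters and in 1.77% of all. Among replication-dependent genes the octamer was found in 13 of 17 H2B and 10 of 15 H2A promoters, but in 1 of 11 H3, 0 of 13 H4 and 0 of 5 H1 promoters. CCAAT was found in every replication-dependent H1, H2A, H2B and H3 promoter listed, and in 3 of 13 H4 promoters. The median GC content was 43% for the replication-dependent genes, 60.7% for the replacement and variant genes and 58.7% for all promoters. Of the replication-dependent genes, 13 of the 26 above background and 11 of the 35 not above background held the octamer.

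The knockdown itself was visible in both lines. SMARCB1 read 9.30 and 9.67 (log2 intensity) on the knockdown arrays of SK-Hep1, against 10.68 and 10.61 on its controls, and 9.22 and 9.27 on the knockdown arrays of Huh7, against 10.84 and 10.94 on its controls. The difference was -1.16 ± 0.107 (log2, SE, n = 2 arrays a group, as for every difference given here; limma, Benjamini-Hochberg adjusted p = 0.000108) in SK-Hep1 and -1.65 ± 0.107 (adjusted p = 3.19e-06) in Huh7, which leaves 44.7% of the signal in SK-Hep1 and 32.0% in Huh7. Over all 12691 genes tested, the 2 arrays of a group differed most in the SK-Hep1 knockdown, with an SD over genes of 0.173, and least in the Huh7 controls, with 0.104. In the deposited table most genes averaged nearly the same over the 4 arrays of either line. These averages differed with an SD over genes of 0.0287, and the largest such difference among histone genes was 0.0553 in size. Histone levels are therefore not compared between the lines, and a signal above background does not show in which line a gene is expressed. Over the 8 arrays, 9 of 9 hepatocyte markers, 2 of 8 endothelial markers and 5 of 6 immune markers were above background (PTPRC, the common leukocyte marker, was not). The 9 hepatocyte markers kept an offset between the lines. Their mean log2 level was 10.35 and 10.34 in SK-Hep1 knockdown and 10.239 and 10.215 in SK-Hep1 control cells. In Huh7 it was 10.47 and 10.51 in knockdown and 10.45 and 10.42 in control cells. Because the normalization is not known, the identity of either line was not checked from such markers. The mean log2 level of the 5 immune markers was 9.34 and 9.16 in SK-Hep1 knockdown, against 9.07 and 9.13 in SK-Hep1 control cells, and 8.98 and 9.02 in Huh7 knockdown, against 9.31 and 9.37 in Huh7 control cells. Among them CD14, which hepatocytes also express, differed by 1.04 in SK-Hep1 (adjusted p = 0.000381) and by -1.07 in Huh7 (adjusted p = 9.84e-05). HLA-DRA differed by -1.06 in SK-Hep1 (adjusted p = 0.0013) and did not pass in Huh7 (0.06, adjusted p = 0.774). CD3D differed by -0.42 in Huh7 (adjusted p = 0.000978) and did not pass in SK-Hep1 (0.0066, adjusted p = 0.961). CD68 differed by 0.61 in SK-Hep1 (adjusted p = 0.00038) and by -0.15 in Huh7 (adjusted p = 0.124). At the threshold used throughout, 2 of the 5 were higher and 1 lower in SK-Hep1 (60%, against 16.3% of all genes). In Huh7, 0 were higher and 2 lower (40%, against 38.1% of all genes). Of the 9 hepatocyte markers, 2 were higher in SK-Hep1 (22.2%), and 1 was higher and 2 lower in Huh7 (33.3%). Of the 2 endothelial markers tested, 1 was higher in SK-Hep1 and 1 lower in Huh7. The part of such markers in the histone results was not tested. The histone values that follow are differences between knockdown and control within a line.

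Every replacement or variant gene gave a signal, while most replication-dependent and germ-line genes did not. All 9 replacement or variant genes lay above background, with means over the 8 arrays between 7.78 for H2AZ2 and 14.41 for H2AZ1 on the log2 scale. Of the 66 replication-dependent genes, 27 were above background: 2 of 5 for H1, 8 of 16 for H2A, 8 of 17 for H2B, 4 of 13 for H3 and 5 of 15 for H4. Of 13 germ-line genes, which are transcribed mainly in testis or oocytes, only H3-5 was above background, at 12.09. These 13 count H2BW4P, a pseudogene by its name. The brightest histone gene was H4C3, a replication-dependent H4 gene, at 14.81, and the dimmest H1-6, the testis-specific linker histone, at 6.34.

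The background level was 6.97, the 95th percentile of probes for olfactory, taste, vomeronasal, keratin-associated and beta-defensin genes. Just above it lay H2AC17 at 6.98, and just below it H4C11 at 6.94. Of the 37 genes tested, 18 lay below 8 and 16 above 9. On chromosome 6, which holds 55 of the 88 genes, 19 were above background, and on chromosome 1, with 15, 9 were. Because the labelling kit primes from poly(A) tails, a low signal of a replication-dependent gene does not show a low amount of its mRNA. Many of these genes are also nearly identical in sequence (H2AC18 and H2AC19, for example), so that a probe's signal can include that of a related gene.

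**Figure D1:**
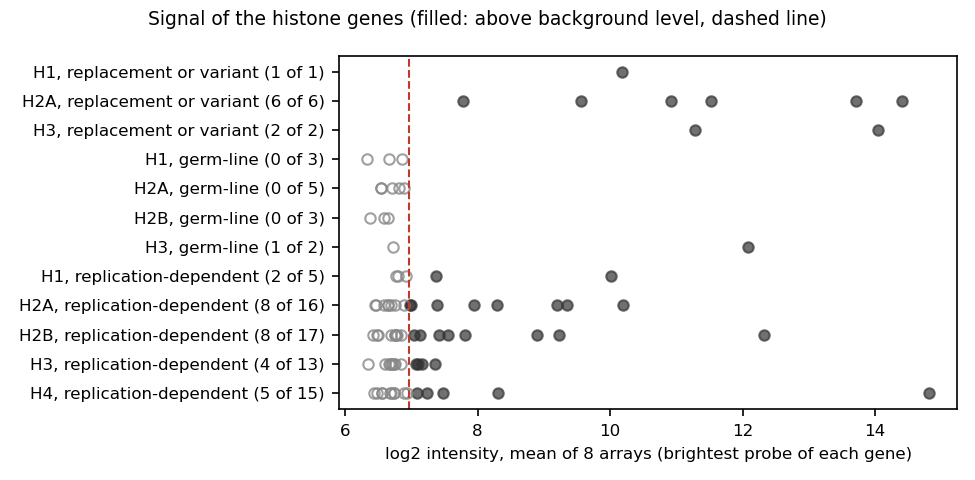
Signal of the 88 histone genes, as the mean log2 intensity over 8 arrays of each gene's brightest probe (x axis), by family and class (y axis, with the number above background of the number on the array). Filled points lie above the dashed background level of 6.97, open points below it; all 9 replacement or variant genes are filled, against 27 of 66 replication-dependent genes and 1 of 13 germ-line genes.

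In SK-Hep1 cells 4 of the 37 histone genes tested (10.8%) passed an adjusted p of 0.05, against 16.3% of all 12691 genes. Of these 4, H2BC5 and H2BC4 were higher and H2AX and H3-5 lower. That is 5.41% in each direction, against 8.06% of all genes higher and 8.22% lower. With 2 arrays a group, a gene that did not pass is not shown to be unchanged. The median difference was 0.0383 over the histone genes and -0.00886 over all genes, and that of the 9 variant genes was -0.0161. The arrays of the 2 SK-Hep1 groups did not overlap for 17 histone genes (45.9%), against 54.2% of all genes. Leaving out 1 SK-Hep1 array moved the number of calls to between 1 (without control 1) and 7 (without knockdown array 11), and it was 2 without control 2 or without knockdown array 12.

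In Huh7 cells the variant histones were mostly higher after the knockdown, and MACROH2A2 stood out by size. Of the 37 histone genes, 13 (35.1%) passed in Huh7, close to the 38.1% of all genes. The calls ran mostly upward: 11 histone genes (29.7%) were higher, against 19% of all genes, and 2 (5.41%) were lower, against 19.1% of all genes. The median difference was 0.105 over the histone genes and 0.000781 over all genes. The variant class held 7 of the 13 calls, 6 higher and 1 lower among 9 genes, with a median of 0.27. The arrays of the 2 Huh7 groups did not overlap for 26 histone genes (70.3%), against 74% of all genes. The number of calls was 6 without control 1, 7 without array 3, 8 without array 4 and 9 without control 2.

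**Figure D2:**
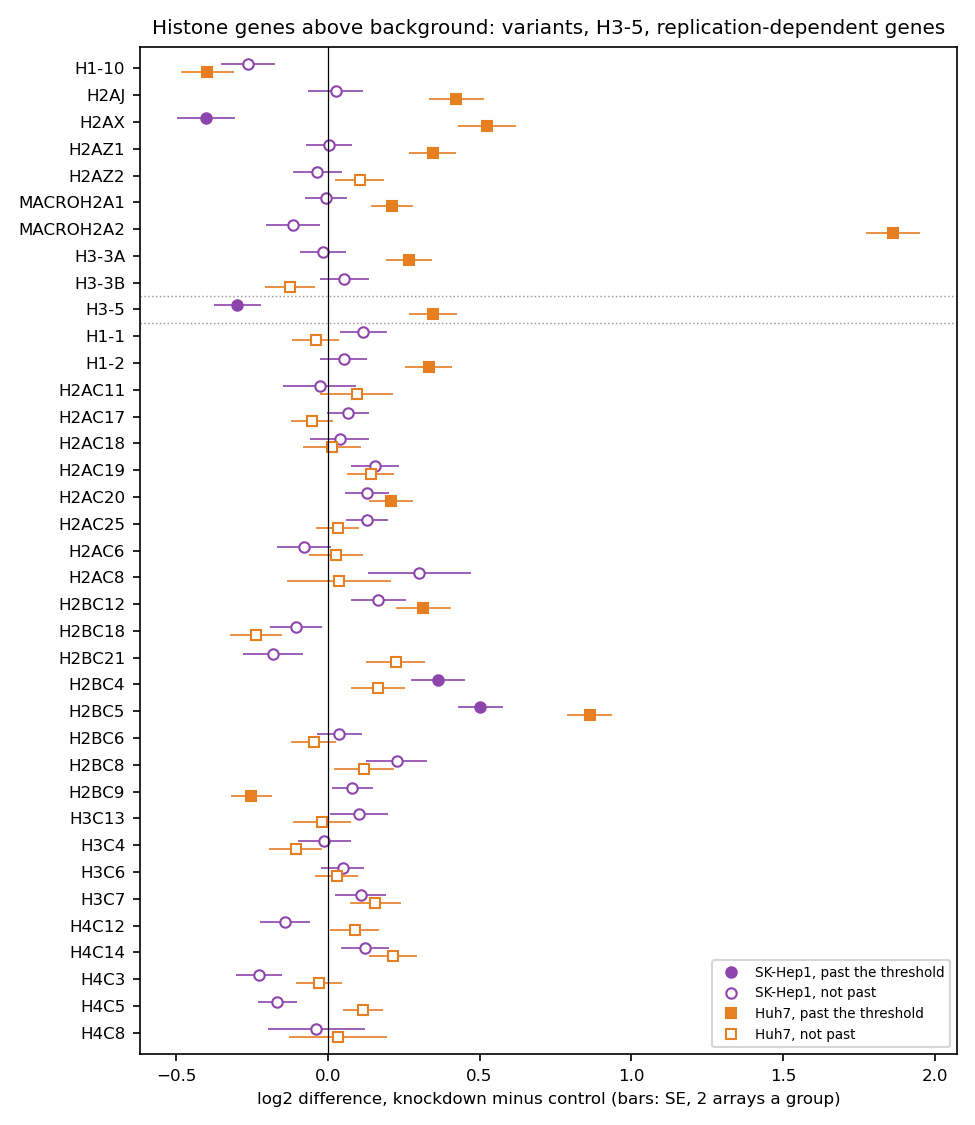
Difference between knockdown and control (x axis, log2, with SE as bars, 2 arrays a group) for the 37 histone genes above background (y axis), variants at the top, then H3-5, then replication-dependent genes. SK-Hep1 is drawn as circles and Huh7 as squares, filled where the adjusted p is under 0.05; MACROH2A2 in Huh7 is the only difference larger than 1, and H2BC5 is filled to the right of 0 in both lines.

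MACROH2A2, which encodes macroH2A2, an H2A variant with a large macro domain that marks repressed chromatin, showed the largest difference among the histone genes tested. The knockdown arrays of SK-Hep1 read 10.999 and 10.74, against 10.93 and 11.03 on its controls. The knockdown arrays of Huh7 read 11.84 and 11.85, against 9.98 and 9.99 on its controls. The SK-Hep1 groups overlapped and the Huh7 groups were far apart. The difference was -0.11 ± 0.0882 in SK-Hep1 (limma adjusted p = 0.405) and 1.86 ± 0.0882 in Huh7 (3.63-fold, adjusted p = 5.31e-07). The lines differed by -1.98 (SK-Hep1 difference minus Huh7 difference, adjusted p = 7.05e-06). The Huh7 difference and that between the lines kept their call in every alternative run.

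MACROH2A1 encodes the more widely expressed macroH2A1. It read 13.70 and 13.74 on the knockdown arrays of SK-Hep1, against 13.66 and 13.78 on its controls, and 13.80 and 13.84 on the knockdown arrays of Huh7, against 13.62 and 13.60 on its controls. The Huh7 groups did not overlap, and the SK-Hep1 groups did. In SK-Hep1 the difference was -0.00457 (adjusted p = 0.973), whereas Huh7 cells showed a rise of 0.21 ± 0.0691 (adjusted p = 0.0349). The Huh7 call was lost without any 1 of the 4 Huh7 arrays (adjusted p between 0.0961 and 0.171), and its other probes above background read 0.16 and 0.03 in that line.

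H2AX, the variant phosphorylated at DNA breaks, moved in opposite directions in the 2 lines. It read 9.51 and 9.22 on the knockdown arrays of SK-Hep1, against 9.77 and 9.77 on its controls, and 9.77 and 9.87 on the knockdown arrays of Huh7, against 9.35 and 9.23 on its controls. Knockdown and control did not overlap in either line. H2AX fell by 0.40 in SK-Hep1 (1.32-fold, SE 0.0961, adjusted p = 0.0188) and rose by 0.52 in Huh7 (1.44-fold, adjusted p = 0.00196), and the lines differed by -0.93 (adjusted p = 0.000829). The Huh7 call and the difference between lines held in every alternative, whereas the SK-Hep1 call was lost without control 1 (adjusted p = 0.0931), without control 2 (0.0818) and without knockdown array 12 (0.0742).

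H2AZ1 encodes H2A.Z.1, found at promoters and regulatory regions. It read 14.48 and 14.34 on the knockdown arrays of SK-Hep1, against 14.36 and 14.45 on its controls, and 14.59 and 14.57 on the knockdown arrays of Huh7, against 14.19 and 14.28 on its controls. The SK-Hep1 arrays overlapped and the Huh7 arrays did not. H2AZ1 differed by 0.00509 in SK-Hep1 (adjusted p = 0.973) and rose by 0.35 ± 0.0761 in Huh7 (1.27-fold, adjusted p = 0.00537), a call lost without Huh7 control 1 (adjusted p = 0.0568).

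The second H2A.Z gene, H2AZ2, passed in neither line. It read 7.76 and 7.76 in SK-Hep1 knockdown and 7.69 and 7.90 in SK-Hep1 control cells (difference -0.03, adjusted p = 0.808). In Huh7 it read 7.86 and 7.82 in knockdown and 7.76 and 7.71 in control cells (difference 0.10, adjusted p = 0.327).

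H2AJ, a replication-independent H2A, read 11.64 and 11.43 in SK-Hep1 knockdown and 11.61 and 11.41 in SK-Hep1 control cells, which overlap. On the knockdown arrays of Huh7 it read 11.76 and 11.71, against 11.28 and 11.34 on its controls, with no overlap. It differed by 0.03 in SK-Hep1 (adjusted p = 0.875) and rose by 0.42 ± 0.0904 in Huh7 (1.34-fold, adjusted p = 0.00451), a call kept in every alternative.

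Of the 2 genes for H3.3, the replacement H3 of transcribed chromatin, H3-3A rose in Huh7 and H3-3B passed in neither line. H3-3A read 14.06 and 13.99 in SK-Hep1 knockdown and 13.98 and 14.10 in SK-Hep1 control cells, which overlap (difference -0.02, adjusted p = 0.909). On the knockdown arrays of Huh7 it read 14.17 and 14.21, against 13.98 and 13.87 on its controls, a difference of 0.27 ± 0.0744 (1.20-fold, adjusted p = 0.0169). That call was lost without control 2 (adjusted p = 0.142), without array 3 (0.0608) and without array 4 (0.101). The other probes of H3-3A, both above background, read 0.08 and 0.23 in Huh7 and 0.03 and -0.04 in SK-Hep1. H3-3B read 11.19 and 11.42 in SK-Hep1 knockdown and 11.27 and 11.23 in SK-Hep1 control cells (difference 0.05, adjusted p = 0.689). In Huh7 it read 11.23 and 11.20 in knockdown and 11.34 and 11.34 in control cells (difference -0.12, adjusted p = 0.249).

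H3-5, an intronless copy of H3-3B described in testis, was picked out after its values were seen, because it passed in both lines in opposite directions. It read 11.97 and 11.92 on the knockdown arrays of SK-Hep1, against 12.31 and 12.18 on its controls, and 12.29 and 12.21 on the knockdown arrays of Huh7, against 11.84 and 11.97 on its controls. Again the groups did not overlap in either line. It fell by 0.30 in SK-Hep1 (1.23-fold, adjusted p = 0.0265) and rose by 0.35 in Huh7 (1.27-fold, adjusted p = 0.00592), with a difference between lines of -0.64 (adjusted p = 0.00191) that held in every alternative. The SK-Hep1 call was lost without control 1 (adjusted p = 0.154) and without knockdown array 12 (0.0782), and the Huh7 call without control 1 (0.0683) and without array 3 (0.054). Its second probe was below background, and the signal given for H3-5 can include that of near-identical H3 transcripts.

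The linker histones bind DNA between nucleosomes. H1-10, a replication-independent linker histone, was the variant that fell in Huh7. It read 10.01 and 10.11 in SK-Hep1 knockdown and 10.42 and 10.22 in SK-Hep1 control cells, without overlap, but did not pass (difference -0.26 ± 0.0887, adjusted p = 0.0692). On the knockdown arrays of Huh7 it read 9.99 and 9.97, against 10.46 and 10.29 on its controls (difference -0.40, 1.32-fold lower, adjusted p = 0.00579, and 0.067 without control 1).

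H1-2, a replication-dependent linker histone, read 10.15 and 9.97 in SK-Hep1 knockdown and 10.02 and 9.99 in SK-Hep1 control cells (difference 0.05, adjusted p = 0.688). In Huh7 it read 10.13 and 10.22 in knockdown and 9.84 and 9.83 in control cells, a rise of 0.33 ± 0.078 (1.26-fold, adjusted p = 0.00747, and 0.067 without array 4). H1-1, the other replication-dependent linker histone above background, passed in neither line. It read 7.34 and 7.51 in SK-Hep1 knockdown and 7.26 and 7.35 in SK-Hep1 control cells (0.12, adjusted p = 0.328), and 7.38 and 7.32 in Huh7 knockdown and 7.40 and 7.38 in Huh7 control cells (-0.04, adjusted p = 0.714).

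**Figure D3:**
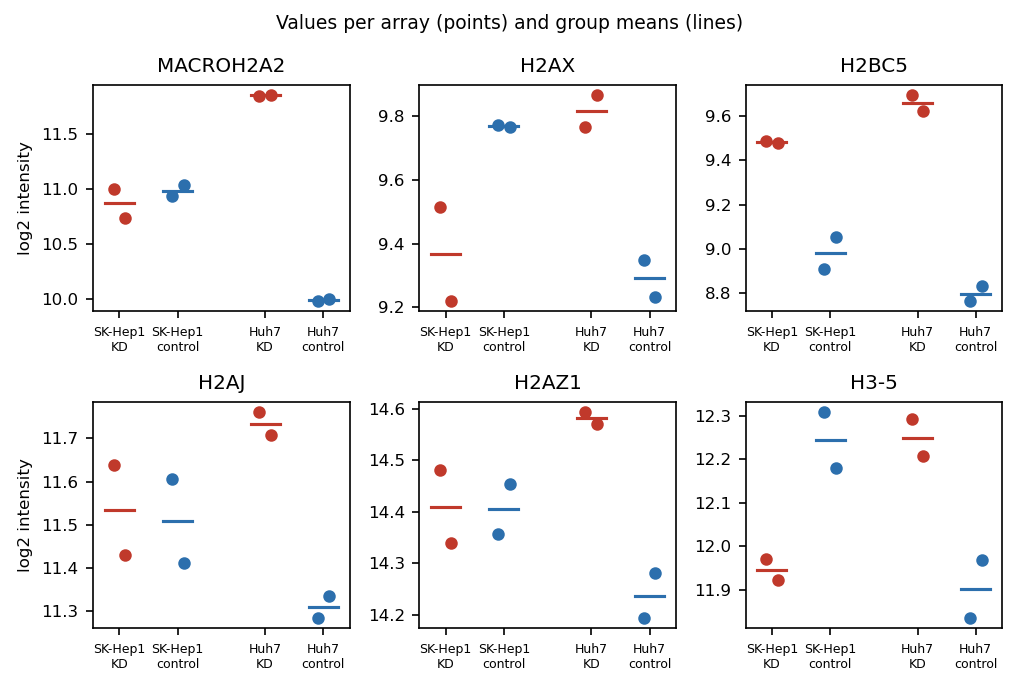
Log2 intensity (y axis, own scale in each panel) of 6 histone genes on each array (points), with group means (lines); KD stands for SMARCB1 knockdown. MACROH2A2, H2AJ and H2AZ1 overlap in SK-Hep1 and separate in Huh7, H2AX and H3-5 are lower in SK-Hep1 knockdown and higher in Huh7 knockdown, and H2BC5 is higher in the knockdown of both lines.

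Of the 27 replication-dependent genes tested, 2 (7.41%) passed in SK-Hep1, against 16.3% of all genes. In Huh7, 5 (18.5%) passed, against 38.1% of all genes. Among the 27, the 8 H2B genes held 2 calls in SK-Hep1, both higher (25%), and 3 in Huh7, 2 higher and 1 lower (37.5%). The 8 H2A genes held 0 calls in SK-Hep1 and 1 in Huh7 (12.5%). H2BC5 encodes a core H2B histone and lies in the large cluster on chromosome 6. By its brightest probe it was the histone gene that rose in both lines. It read 9.49 and 9.48 on the knockdown arrays of SK-Hep1, against 8.91 and 9.06 on its controls, and 9.70 and 9.62 on the knockdown arrays of Huh7, against 8.76 and 8.83 on its controls. Knockdown and control were separate in both lines. The rise was 0.50 ± 0.0741 in SK-Hep1 (1.42-fold, adjusted p = 0.00173) and 0.86 in Huh7 (1.82-fold, adjusted p = 1.86e-05), and both calls held in every alternative. The rise was smaller in SK-Hep1 by 0.36 (SK-Hep1 difference minus Huh7 difference -0.36, adjusted p = 0.0252). A second, dimmer probe of H2BC5, at a level of 7.18, read 0.03 in SK-Hep1 and 0.19 in Huh7.

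Of the 4 genes above background nearest to H2BC5, H2BC4 also rose in SK-Hep1 and the other 3 passed in neither line. In RefSeq order, H2BC4 and H2AC6 come before it and H2BC6 and H3C4 after it among the genes above background. H2AC6 read -0.08 in SK-Hep1 and 0.03 in Huh7, H2BC6 0.04 in SK-Hep1 and -0.05 in Huh7, and H3C4 -0.01 in SK-Hep1 and -0.11 in Huh7. H2BC4, another H2B gene, read 7.54 and 7.68 on the knockdown arrays of SK-Hep1, against 7.20 and 7.29 on its controls, and rose by 0.36 ± 0.0897 (1.29-fold, adjusted p = 0.0213). That call was lost without control 1 (adjusted p = 0.128), control 2 (0.0574) or array 12 (0.0859), and in Huh7 the difference was 0.16 (adjusted p = 0.172).

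The other replication-dependent core histone genes that passed did so in Huh7. H2BC12, another H2B gene, read 12.56 and 12.36 in Huh7 knockdown and 12.10 and 12.19 in Huh7 control cells, a rise of 0.32 ± 0.0906 (1.24-fold, adjusted p = 0.0194) that was lost without control 1 (0.13), control 2 (0.0524) or array 3 (0.162). Its second probe read 0.22. H2AC20, an H2A gene on chromosome 1, read 10.31 and 10.25 in Huh7 knockdown and 10.03 and 10.11 in Huh7 control cells, a rise of 0.21 ± 0.0721 (1.16-fold, adjusted p = 0.0423) that was lost without any 1 Huh7 array (adjusted p between 0.0821 and 0.239).

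H2BC9, an H2B gene on chromosome 6, fell in Huh7, with 7.46 and 7.43 in knockdown and 7.73 and 7.66 in control cells (difference -0.25 ± 0.067, 1.19-fold lower, adjusted p = 0.0137). It lost its call without control 1 (0.112), array 3 (0.0597) or array 4 (0.0853). None of the 3 genes passed in SK-Hep1, where the differences were 0.17 for H2BC12 (adjusted p = 0.236), 0.13 for H2AC20 (0.245) and 0.08 for H2BC9 (0.443).

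By limma with Benjamini-Hochberg adjustment, 0 of the 9 replication-dependent H3 and H4 genes tested (4 and 5) passed in either line. Of all genes, 16.3% passed in SK-Hep1 and 38.1% in Huh7. At an unadjusted p under 0.05, 2 of the 9 were lower in SK-Hep1, against 15.2% of all genes higher and 16.8% lower. In Huh7, 1 of the 9 was higher, against 24% of all genes higher and 23.5% lower. H4C3, the brightest histone gene, read 14.77 and 14.63 in SK-Hep1 knockdown and 14.87 and 14.99 in SK-Hep1 control cells, without overlap (difference -0.23 ± 0.0759, adjusted p = 0.0659). In Huh7 it read 14.81 and 14.79 in knockdown and 14.83 and 14.82 in control cells (difference -0.03, adjusted p = 0.797). The lower level of H4C3 in SK-Hep1 passed without knockdown array 11 (adjusted p = 0.03) and with a variance trend (0.0235). H4C14, another H4 gene, picked out after its values were seen, just missed the threshold in Huh7 (difference 0.22, adjusted p = 0.0523) and passed in 9 of 15 alternatives (adjusted p between 0.0181 and 0.0498).

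Tested directly, the difference between knockdown and control was unlike in the 2 lines for 9 histone genes (24.3%), against 30.6% of all genes. In 8 of the 9 the difference was lower in SK-Hep1 than in Huh7. Over all genes, 14.9% were higher and 15.7% lower in this comparison. SMARCB1 itself, which fell less in SK-Hep1, differed by 0.48 (adjusted p = 0.0353), and by 0.30 to 0.67 with 1 array left out. The controls were also unlike, a control hairpin in SK-Hep1 and a GFP control in Huh7. Cell line, depth of knockdown, kind of control and, if the numbers in the titles name hairpins, the hairpins used cannot be told apart here. MACROH2A2, H2AX and H3-5 held in every alternative. Smaller differences between the lines were found for H2AJ (-0.40, adjusted p = 0.0383), H2AZ1 (-0.34, adjusted p = 0.0359), H2BC5, H2BC9 (0.33, adjusted p = 0.0233), and, picked out after their values were seen, H2BC21 (-0.40, adjusted p = 0.0484) and H4C5 (-0.28, adjusted p = 0.0413). Each of these 6 lost its call without Huh7 control 1 and without Huh7 control 2, and without further arrays. The number of genes was 3 without Huh7 control 1, control 2 or array 3, 4 without Huh7 array 4 and 5 without SK-Hep1 control 1.

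Genes that act with histones were read from lists of known function. In the list for histone transcript supply (transcription, 3′ end processing, stability and translation of histone mRNAs, and the cyclins upstream), 2 of 19 passed in SK-Hep1 (10.5%, against 16.3% of all genes), both lower, and 6 of 19 in Huh7 (31.6%, against 38.1% of all genes), 4 higher and 2 lower. CPSF2, a subunit of the cleavage complex, fell by 0.38 in SK-Hep1 (adjusted p = 0.00499), and CSTF2, a cleavage stimulation factor subunit, rose by 0.60 in Huh7 (adjusted p = 0.000217). CCNA2, the S phase and G2 cyclin A2, fell by 0.45 in SK-Hep1 (adjusted p = 0.00447) and rose by 0.34 in Huh7 (adjusted p = 0.00765, lost without control 2 or array 4). CCNE1, the G1 cyclin E1, rose by 0.45 in Huh7 (adjusted p = 0.0153, lost without either control or array 4). TENT4B, a poly(A) polymerase that tails RNAs for decay, fell by 0.34 there (adjusted p = 0.012, lost without either control or array 3). SLBP, the protein that binds the histone stem-loop, rose by 0.22 (adjusted p = 0.0484), and CTIF, a translation factor of the cap-binding complex, fell by 0.26 (adjusted p = 0.0488). These 2 calls were lost without any 1 Huh7 array or SK-Hep1 control and without the filter on dim genes (and that of SLBP with the mean of its probes, that of CTIF with quantile normalization), whereas both SK-Hep1 calls and that of CSTF2 held in every alternative.

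Histone chaperones, which carry histones to and from DNA, passed in both directions. In SK-Hep1, 1 of 28 was higher and 4 were lower (17.9% in all, against 16.3% of all genes), with a median difference of -0.0726. SUPT16H, a subunit of the FACT complex, fell by 0.34 (adjusted p = 0.00977, and 0.0638 without control 1), and DNAJC9, an H3-H4 co-chaperone, by 0.33 (adjusted p = 0.0197, lost without control 1, control 2 or array 12). NAP1L1, a chaperone of H2A and H2B, rose by 0.32 (adjusted p = 0.0217, lost without control 1 or array 11), and differed by 0.17 as the mean of its probes (adjusted p = 0.1). DEK, a chromatin protein that binds H3.3, fell by 0.29 (adjusted p = 0.0228, lost without control 1, control 2 or array 12), and RBBP7, a subunit of several histone-binding complexes, by 0.27 (adjusted p = 0.0357, lost without control 1 or array 12, and without any 1 Huh7 array). Array weights also ended the calls of NAP1L1, DEK and RBBP7, and fitting the line alone those 3 and that of DNAJC9 (adjusted p between 0.0609 and 0.107), and testing without the filter that of RBBP7 (0.0554). Leaving out 1 SK-Hep1 array gave 0 lower without control 1, 1 without array 12, 2 without control 2 and 7 without array 11.

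In Huh7, 9 of the 28 chaperones were higher and 3 lower (42.9% in all, against 38.1% of all genes), with a median difference of 0.0363. SUPT6H, the H3-H4 chaperone of elongating RNA polymerase II, rose by 0.50 (adjusted p = 0.000283) and DNAJC9 by 0.46 (adjusted p = 0.00142), and both held in every alternative. MCM2, a helicase subunit that binds H3-H4 at forks, rose by 0.46 (adjusted p = 0.00741, lost without control 1 or array 3), and SPTY2D1, a chaperone of H3-H4, fell by 0.38 (adjusted p = 0.00898, lost without control 2 or array 4). CHAF1B, a subunit of the CAF-1 complex that assembles new nucleosomes, rose by 0.32 (adjusted p = 0.034, lost without control 2, array 3 or array 4), and NAP1L1 by 0.31 (adjusted p = 0.0126, lost without control 1 or array 4). Leaving out 1 Huh7 array gave 3 higher without control 1, array 3 or array 4 and 4 higher without control 2, with 0 or 1 lower.

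Among 13 genes that load or remove H2A.Z, 1 was higher and 2 were lower in SK-Hep1 (23.1%, against 16.3% of all genes), and 2 were higher and 3 lower in Huh7 (38.5%, against 38.1% of all genes). INO80, the ATPase of the INO80 remodeller, fell by 0.31 in SK-Hep1 (adjusted p = 0.0168, and 0.0916 without control 2) and rose by 0.49 in Huh7 (adjusted p = 0.00053). ZNHIT1, a subunit of the SRCAP complex that deposits H2A.Z, rose by 0.27 in SK-Hep1 (adjusted p = 0.0298, lost without SK-Hep1 control 1, array 11 or either Huh7 control) and fell by 0.36 in Huh7 (adjusted p = 0.0031). YEATS4, a subunit shared by SRCAP and the TIP60 acetyltransferase complex, fell by 0.38 in SK-Hep1 (adjusted p = 0.0115, and 0.079 without control 2). ACTR6, another SRCAP subunit, fell by 0.43 in Huh7 (adjusted p = 0.00236). DMAP1, also shared by SRCAP and TIP60, rose by 0.31 in Huh7 (adjusted p = 0.0112, lost without either control or array 4), and VPS72, the subunit that binds H2A.Z, fell by 0.27 (adjusted p = 0.0355, lost without any 1 Huh7 array). The Huh7 calls of INO80, ZNHIT1 and ACTR6 held in every alternative, whereas array weights and fitting the line alone ended the SK-Hep1 calls of INO80 (adjusted p = 0.0506 and 0.0614) and ZNHIT1 (0.0837 and 0.102).

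Genes of DNA replication, most of which peak around S phase, were read beside the histone genes. In SK-Hep1, 0 of 25 were higher and 6 (24%) lower by limma, against 8.06% of all genes higher and 8.22% lower. By unadjusted p under 0.05 the counts were 0 and 10, against 15.2% of all genes higher and 16.8% lower. Their median difference was -0.15, while that of the histone genes was 0.0383. Their mean log2 level was 10.92 and 10.70 on the knockdown arrays of SK-Hep1, against 10.95 and 10.93 on its controls, so that array 12 lay below the others. Leaving out 1 SK-Hep1 array gave 0 lower without control 1, 1 without control 2, 1 without array 12 (with 3 higher) and 13 without array 11.

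In Huh7, 15 of the 25 (60%) were higher and 0 lower, against 19% of all genes higher and 19.1% lower (by unadjusted p, also 15 and 0, against 24% and 23.5% of all genes), with a median difference of 0.27 beside 0.105 for the histone genes. Their mean level was 11.04 and 11.05 on the knockdown arrays of Huh7, against 10.70 and 10.72 on its controls, without overlap. Leaving out 1 Huh7 array gave 8 higher without control 1 and 9 without array 4. The part of DNA replication activity in the histone differences was not tested.

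**Figure D4:**
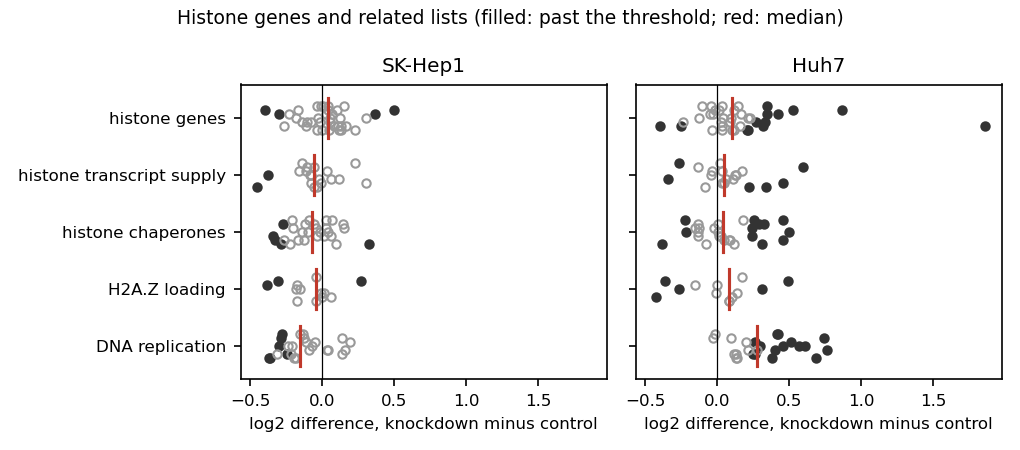
Differences between knockdown and control (x axis, log2) for histone genes and 4 related lists (y axis) in SK-Hep1 (left) and Huh7 (right). Each point is a gene above background, filled where the adjusted p is under 0.05, and red bars are medians; the DNA replication genes lie mostly left of 0 in SK-Hep1 (median -0.15) and right of 0 in Huh7 (median 0.27).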

How the data were processed

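Total RNA (0.55 µg an array) was amplified, labelled and hybridised to Illumina bead arrays, and the scans were read with GenomeStudio 2011.1, per the submitters' processing notes. The authors' deposited table gives log2 intensities of 47319 probes. Array medians were nearly equal, at 6.93, and the mean of most genes was nearly equal in the 2 lines. The normalization that did this is not given in the sources used here. A further 16 columns of the deposited non-normalized table could not be matched to samples and were not used. No depth exists for arrays; their number, 2 a group, limits the precision.

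Probes were named from the platform annotation (30110 probes had 1 symbol, 8 several, 17201 none), and 30071 matched RefSeq. Each gene took its brightest probe by the mean of the 8 arrays. Genes with a mean above the 95th percentile (6.97) of 616 olfactory, taste, vomeronasal, keratin-associated and defensin probes were tested, 12691 of 20044. Differences were fitted with lmFit and eBayes of limma 3.58.1, under R 4.3.3 (4 group means, all 8 arrays, 4 residual degrees of freedom), two-sided, adjusted by Benjamini-Hochberg over all genes tested, threshold 0.05. Scripts were tested on simulated data. Sequences are from RefSeq promoters.

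Named with values were all variant and linker histone genes above background, replication-dependent core genes past the threshold, the brightest and dimmest gene, and, of each list, up to 6 genes a line with the largest differences past the threshold. The histone set and the lists were chosen with earlier results of these data known. Alternatives were a 99th percentile background, no filter, the mean of a gene's probes, quantile normalization within each line, a variance trend, array weights, each line fitted alone, and each array left out.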

Additional observations from a re-analysis of the deposited data

Results flagged for a closer look

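A test of the knockdown difference in SK-Hep1 minus that in Huh7 (limma, adjusted over all genes) passed for 9 histone genes. MACROH2A2 differed by -1.98 (adjusted p = 7.05e-06), H2AX by -0.925 (adjusted p = 0.000829) and H3-5 by -0.645 (adjusted p = 0.00191). The other 6 were smaller: H2BC21 at -0.405 (adjusted p = 0.0484), H2AJ at -0.397 (adjusted p = 0.0383), H2BC5 at -0.361 (adjusted p = 0.0252), H2AZ1 at -0.34 (adjusted p = 0.0359), H4C5 at -0.283 (adjusted p = 0.0413) and H2BC9 at 0.332 (adjusted p = 0.0233). H2BC9 is the exception in sign: its difference was 0.08 in SK-Hep1 and -0.25 in Huh7.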

How the results depend on the processing

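No difference of a histone gene that passed the threshold changed sign in any alternative. Of the calls, 1 of 4 in SK-Hep1 (H2BC5), 4 of 13 in Huh7 (MACROH2A2, H2BC5, H2AX and H2AJ) and 3 of 9 between the lines held in every alternative. Array weights left 2 calls in SK-Hep1, 1 higher and 1 lower. The 99th percentile background left 1 higher in SK-Hep1, because H2BC4, at 7.42, lay under that level of 7.47 and was not tested. Fitting the line alone left 1 lower. Without a filter on dim genes, 4 histone genes were lower in Huh7 and 5 differed between the lines. With 1 array left out, the calls ranged from 1 to 7 in SK-Hep1 (1 to 4 higher, 0 to 3 lower), from 6 to 16 in Huh7 (6 to 13 higher, 0 to 3 lower) and from 3 to 10 between the lines; the cause was not tested. Among genes that did not pass, 4 of 33 in SK-Hep1, 3 of 24 in Huh7 and 4 of 28 between the lines passed in at least 1 alternative (H4C3, H2AC8, H2BC8 and H2BC21 in SK-Hep1, and H4C14, H2BC18 and H2BC21 in Huh7). The MACROH2A1 call in Huh7 was lost with the mean of its probes (0.13, adjusted p = 0.11), with quantile normalization (0.17, adjusted p = 0.071) and without the filter (adjusted p = 0.0648), the H2AC20 call without the filter (adjusted p = 0.0739). In SK-Hep1, array weights ended the calls of H2BC4 (adjusted p = 0.0674) and H3-5 (0.0825), and fitting the line alone that of H3-5 (0.0743). Over all genes, 2066 calls in SK-Hep1 became 1183 with array weights, 1096 with the line alone, 911 without control 1 and 1197 without control 2, and 4834 in Huh7 became 2871 to 3129 without 1 Huh7 array. No paired analysis was possible because knockdown and control share no replicate number in the labels. Genes near the background level of 6.97 have little room to show a fall.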
